A study of Mus musculus with 2 samples.

Results

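The carbonic anhydrase genes Car3, Car4 and Car5b were taken by symbol from the deposited transcript table, in which 3 of 10761 usable gene symbols matched. They stand for the form of this enzyme known from the cytosol of fat cells, the form on the surface of capillary endothelium and a form of the mitochondrial matrix. The genes were picked with values of these same libraries in view, so their levels and differences are a description with no test. Of the 16 carbonic anhydrase symbols looked for, 9 had values, and the other 6 of these 9 are given beside the 3 genes.

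The SML library came from brown adipose tissue of male C57BL6/J mice aged 8 to 12 weeks that were given SML intraperitoneally at 5 mg per kg body weight and ate a diet with 60% of its calories from fat for 10 days. The HFD control library came from mice of the same strain, sex and age on the same diet for the same time, without SML. Sesaminol, a lignan of sesame, is named in the series title, whereas the labels write SML throughout. The labels do not say how many animals each library pooled or whether control mice received a vehicle injection. With 1 library per group, each difference below compares 2 libraries, has no replicate check, and its interval covers counting error alone.

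Carbonic anhydrases are zinc enzymes that interconvert carbon dioxide and bicarbonate. Tissues use them to move carbon dioxide out towards the blood, to buffer acid, and to supply bicarbonate to the carboxylases that make oxaloacetate and malonyl-CoA. Car3 encodes a cytosolic form of low catalytic activity that is very abundant in fat cells and in slow skeletal muscle fibres. Car4 encodes a form tethered to the outer cell surface by a lipid anchor, found on capillary endothelium and in several other tissues. Car5b encodes the more widely expressed of the mitochondrial forms.

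The stretch of coding sequence round the zinc site shows what the 3 genes share and how the catalytic forms differ from an inactive relative in the same tissue. Capitals mark the codons that align with the 3 zinc-binding histidine codons of mouse Car2. Each stretch runs 5′ to 3′ along the coding strand and was read from the GENCODE M21 transcripts of build GRCm38.
Car3: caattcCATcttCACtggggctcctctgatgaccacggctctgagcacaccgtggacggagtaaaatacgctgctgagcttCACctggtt
Car4: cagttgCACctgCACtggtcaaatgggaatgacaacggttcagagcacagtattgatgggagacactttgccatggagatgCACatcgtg
Car5b: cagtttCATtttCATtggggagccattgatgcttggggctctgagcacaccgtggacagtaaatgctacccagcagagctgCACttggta
Car11: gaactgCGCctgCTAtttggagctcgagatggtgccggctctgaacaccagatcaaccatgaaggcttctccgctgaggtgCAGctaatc
The 3 capital codons read CAT or CAC, the histidine codons, at each position in Car3, Car4 and Car5b. Car11, which encodes a carbonic anhydrase-related protein without enzyme activity, held 0 histidine codons at these places. Over the 90 bases shown, Car3 and Car5b had 64 identical bases, Car3 and Car4 had 52, and Car4 and Car5b had 48. In each of the 3 genes the stretch crosses 1 intron. That of Car3 lies in exons 3 and 4 at chr3:14866844-14868360 on the plus strand, that of Car4 in exons 4 and 5 at chr11:84964161-84964359 on the plus strand, and that of Car5b in exons 4 and 5 at chrX:163990509-163991428 on the minus strand.

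Car3 was 1.83-fold higher in the SML library, whereas Car4 and Car5b were lower by less than the 1.5-fold rule. Car3 was also by far the most abundant carbonic anhydrase transcript in both libraries. Levels are in FPKM, a measure of fragments corrected for transcript length and library size, so that genes can be compared with each other. Higher and lower mean that log2(FPKM + 1) in SML minus that in HFD control reached 1.5-fold in that direction. The rule was applied to the 9870 genes whose FPKM averaged 1 or more over both libraries. In the SML library 5.45% of them were higher and 5.74% lower, around a median difference of 0. The 3 genes all passed the filter on low values, and 1 was higher, 0 were lower and 2 were neither. Since the genes were picked on these libraries, nothing is read from that count.

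**Figure D1:**
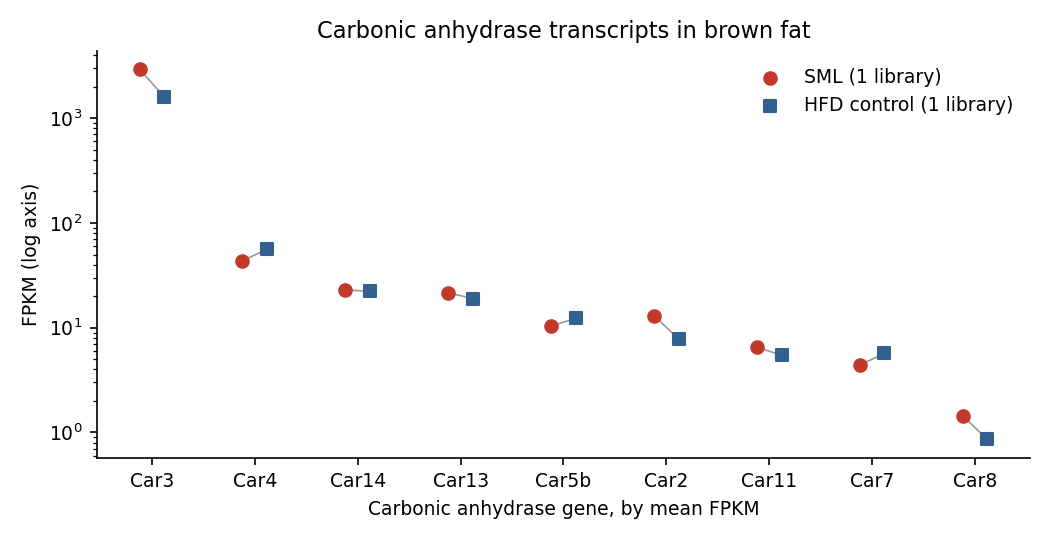
FPKM of the 9 measured carbonic anhydrase genes on a log axis, ordered by their mean, with a red circle for the SML library and a blue square for the HFD control library. Car3 stands at 2936 FPKM in SML and 1598 FPKM in HFD control, and no other gene of the family exceeds 56.0 FPKM.

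Car3 had 2936 FPKM in the SML library, against 1598 FPKM in the HFD control library. These values rest on 38524 fragments in SML and 28580 in HFD control, and their exact Poisson intervals were 2907 to 2965 FPKM in SML and 1580 to 1617 FPKM in HFD control. The ratio of scaled counts was 1.83 (95% exact conditional binomial interval 1.804 to 1.860), and the log2(FPKM + 1) difference was 0.88. The gene has a single transcript in the table, at chr3:14863538-14872373 in mm10 on the plus strand, and no other annotated gene overlaps that span.

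By FPKM Car3 was the 44th gene of the SML library and the 95th of the HFD control library, and its share of total FPKM was 0.373% in SML and 0.191% in HFD control. The gain of 1337 FPKM in SML was the 4th largest of any gene. Of the 62 genes with a mean FPKM at or above that of Car3, 1 was higher in SML, namely Car3 itself, and 3 were lower. Tpt1, just under that cut at a mean of 2260 FPKM, was also higher, at a ratio of 1.55. Of the 121 genes within 2-fold of the mean FPKM of Car3, itself included, 2.48% were higher and 4.13% lower. Their quartiles of the log2 difference were -0.24 and 0.07.

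**Figure D2:**
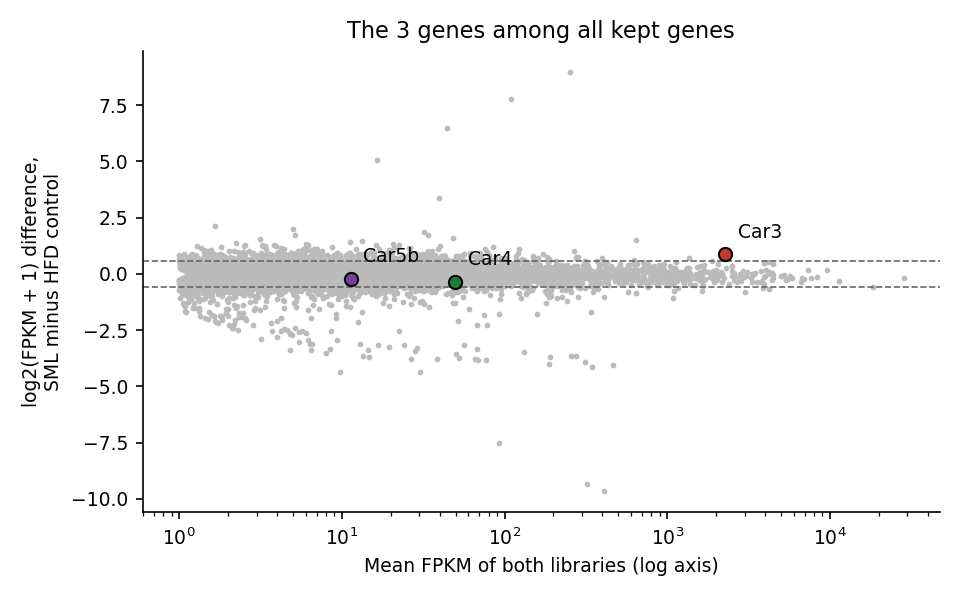
Difference in log2(FPKM + 1), SML minus HFD control, against the mean FPKM of both libraries on a log axis, for the 9870 kept genes (grey), with Car3, Car4 and Car5b in colour. The dashed lines mark 1.5-fold; Car3 lies above the upper line at 0.88, and Car4 and Car5b lie between the lines at -0.35 and -0.23.

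The genes whose levels in both libraries lay nearest to those of Car3, by distance over 2 points on the log2(FPKM + 1) scale, were Tpt1, Rps29 and Ifi27l2a. Tpt1, the translationally controlled tumour protein gene, was the closest at a distance of 0.17, with 2755 FPKM in SML and 1764 FPKM in HFD control. Rps29, a ribosomal protein gene, and Ifi27l2a, an interferon-induced gene, lay at distances of 0.35 and 0.39. With 2 libraries such likeness describes levels and nothing more.

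Fat cell markers as a group did not share the Car3 difference. Of 16 general adipocyte markers 0 were higher and 1 was lower in SML, at a median log2 difference of -0.05, and all 16 lay below the value of Car3. They ran from Retn (-0.86), which encodes resistin, and Adipoq (-0.35), which encodes adiponectin, up to Dgat2 (0.13) and Acsl1 (0.20), enzymes of triglyceride synthesis and fatty acid activation. Of 14 kept brown adipocyte markers 2 were higher and 0 lower, at a median of 0.16, and all 14 lay below Car3 as well. Their lowest were Cox8b (-0.57) and Ucp1 (-0.13), and their highest were Zic1 (0.77) and Dio2 (0.77). Prdm16, also a listed brown marker, fell under the filter on low values. It had 0.41 FPKM in SML and 1.42 FPKM in HFD control, a ratio of 0.291 (0.192 to 0.423). Ucp1, the uncoupling protein that defines the tissue, stood at 7955 FPKM in SML and 8702 FPKM in HFD control, so both libraries carried the labelled tissue's defining transcript. In bulk tissue fewer cells of a type and less RNA per cell cannot be told apart.

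Transcripts of skeletal muscle, the other tissue known for Car3, were far lower in the SML library. All 31 kept muscle markers were lower in SML, at a median log2 difference of -3.47. Their summed level was 512 FPKM in SML and 5669 FPKM in HFD control. No muscle marker with values was listed at 0 in either library. The differences ran from Tnni1 (-4.37) and Tnni2 (-4.13), troponin I genes of slow and fast fibres, to Myh2 (-1.93) and Myl1 (-1.19), myosin genes. Myh7, the myosin heavy chain of slow fibres, had 0.54 FPKM in SML and 7.87 FPKM in HFD control. Car3 was higher in the library with the lower muscle marker sum. The part of muscle content in the Car3 difference was not tested. The difference for Car3 was 0.95 when the totals were made equal without the muscle markers.

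**Figure D3:**
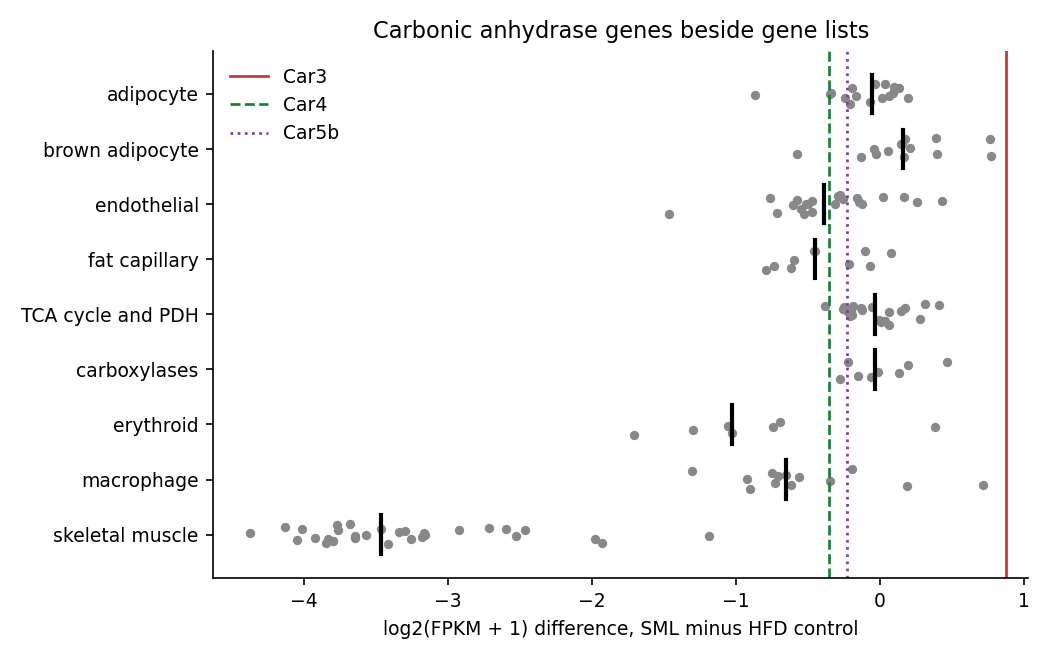
Differences in log2(FPKM + 1), SML minus HFD control, of the kept genes of 9 lists (grey points, 1 per gene, spread vertically for display; black bars are list medians), with vertical lines for Car3, Car4 and Car5b. On this scale the Car3 line at 0.88 lies right of every gene shown. The Car4 line at -0.35 lies close to the endothelial median of -0.39, and all muscle genes shown lie left of the 3 lines.

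Car4 had 43.7 FPKM in the SML library, against 56.0 FPKM in the HFD control library. The fragments behind these values were 476 in SML and 831 in HFD control, and the Poisson intervals were 39.9 to 47.8 FPKM in SML and 52.2 to 59.9 FPKM in HFD control. The ratio of scaled counts was 0.778 (0.694 to 0.872), so the counting interval lay below 1 while the log2 difference of -0.35 stayed within the 1.5-fold rule. Its single transcript lies at chr11:84957754-84966054 in mm10 on the plus strand, with no overlapping annotated gene. Among the 1632 genes within 2-fold of its mean FPKM, Car4 included, the quartiles were -0.18 and 0.21. Car4 thus lay below the lower quartile of genes of like abundance.

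Of 22 endothelial markers 0 were higher, 4 were lower and 18 were neither in the SML library. Their median log2 difference was -0.39, with 18 below 0 and 4 above it, and their summed level was 324 FPKM in SML and 472 FPKM in HFD control. Car4 sat in the middle of them, with 11 below and 11 above. The lowest were Cldn5 (-1.47), a tight junction gene, and Icam2 (-0.76), an adhesion molecule gene, and the highest were Vwf (0.26), which encodes von Willebrand factor, and Erg (0.43), a transcription factor gene of endothelium. Cdh5, the endothelial cadherin, had 21.95 FPKM in SML and 36.7 FPKM in HFD control, and no endothelial marker with values was listed at 0.

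Of 10 markers known from the capillaries of fat 0 were higher and 4 lower, at a median of -0.45, and 6 lay below Car4 and 4 above it. Ly6c1 (-0.79) and Gpihbp1 (-0.73) were the lowest, and Rgcc (-0.07) and Cd36 (0.08) the highest. The product of Gpihbp1, the capillary anchor of lipoprotein lipase, is held on the endothelial surface by the same kind of lipid anchor as that of Car4. Gpihbp1 had 169 FPKM in SML and 282 FPKM in HFD control. The part of endothelial cell content in the Car4 difference was not tested.

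The genes nearest to Car4 in both libraries were St6galnac6, a sialyltransferase gene, Tubg1, a gamma-tubulin gene, and Tmem120b, a membrane protein gene, at distances of 0.03, 0.03 and 0.04. None of these is on the endothelial or capillary list.

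Car5b had 10.4 FPKM in the SML library, against 12.3 FPKM in the HFD control library. It was counted with 330 fragments in SML and 533 in HFD control, which gave Poisson intervals of 9.27 to 11.5 FPKM in SML and 11.3 to 13.4 FPKM in HFD control. The ratio was 0.841 (0.731 to 0.967) and the log2 difference -0.23, again within the 1.5-fold rule. The interval for counting error came close to 1, and the Poisson intervals of the 2 libraries overlapped. The transcript spans chrX:163976822-164028010 in mm10 on the minus strand, and no other annotated gene overlaps it.

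**Figure D4:**
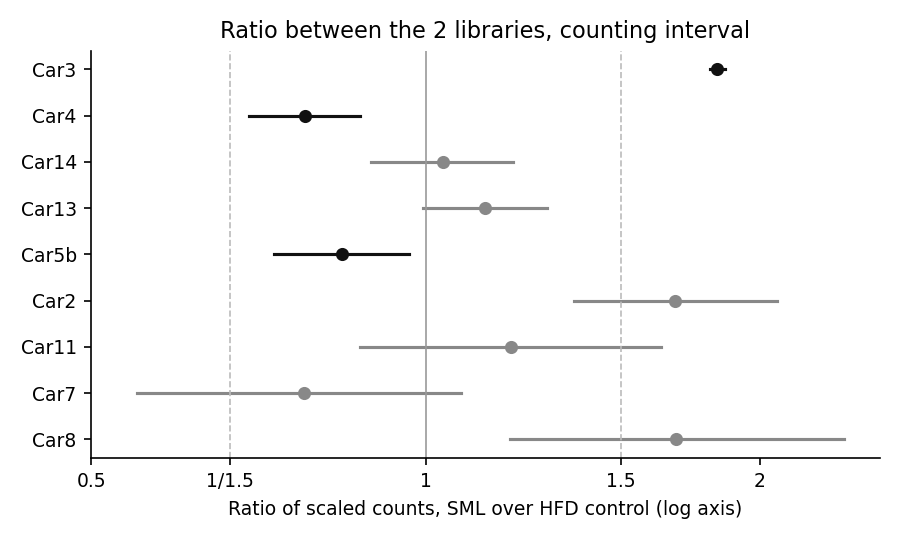
Ratio of scaled counts, SML over HFD control, on a log axis with its 95% exact conditional binomial interval (counting error only) for 9 carbonic anhydrase genes, with Car3, Car4 and Car5b in black and the others in grey; dashed lines mark 1.5-fold in each direction. Car3 stands at 1.83 with the narrowest interval, while the Car4 ratio of 0.778 and the Car5b ratio of 0.841 lie below 1 and inside the dashed lines.

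Genes of the mitochondrial matrix differed little as a group. Of 22 genes of the tricarboxylic acid cycle and pyruvate dehydrogenase 0 were higher and 0 lower, at a median of -0.03, and 4 lay below Car5b while 18 lay above it. Idh2 (-0.38) and Pdhb (-0.25) were at the low end, and Idh3a (0.31) and Sucla2 (0.41) at the high end. Among the 3060 genes within 2-fold of the mean FPKM of Car5b, itself included, the quartiles of the difference were -0.20 and 0.24. The Car5b value of -0.23 was just under the lower one. The genes nearest to Car5b included Tsacc and Poldip3, at distances of 0.003 and 0.01 on the log2 scale.

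Carboxylases that consume bicarbonate are the textbook partners of Car5b in mitochondria and of other forms in the cytosol. Of 8 kept genes of bicarbonate-using enzymes, all but Cad for carboxylases, 0 were higher and 0 lower, at a median of -0.04. Pcx, the pyruvate carboxylase of the matrix, had 170 FPKM in SML and 198 FPKM in HFD control, a difference of -0.22 beside the -0.23 of Car5b. Acaca and Acacb, the acetyl-CoA carboxylases of fatty acid synthesis and of the control of fat oxidation, differed in direction. Acaca had 98.4 FPKM in SML and 119 FPKM in HFD control (-0.27), whereas Acacb had 97.9 FPKM in SML and 70.6 FPKM in HFD control (0.47). The subunits of propionyl-CoA carboxylase, Pcca (-0.06) and Pccb (-0.01), and of methylcrotonyl-CoA carboxylase, Mccc1 (0.13) and Mccc2 (0.20), lay near 0. Cad, a pyrimidine synthesis enzyme gene, stood at -0.15. Cps1, the carbamoyl phosphate synthetase of liver mitochondria, was listed at 0 in both libraries.

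Of the other carbonic anhydrase genes 1 of 6 was higher and 0 were lower. Car2, the fast cytosolic form best known from red cells, kidney and osteoclasts, had 13.1 FPKM in SML and 7.78 FPKM in HFD control, a ratio of 1.68 (1.36 to 2.07). Erythroid markers differed the opposite way, with 0 of 7 higher and 6 lower, a median of -1.03 and a summed level of 1865 FPKM in SML and 3741 FPKM in HFD control. They ran from Hba-a2 (-1.71) and Hbb-bs (-1.30), globin genes, to Alas2 (-0.69), the haem synthesis enzyme of red cells, among the genes reported here. Car8 had 1.44 FPKM in SML and 0.86 FPKM in HFD control. Its ratio of 1.68 (1.19 to 2.38) rested on 78 fragments in SML and 63 in HFD control, and its log2(FPKM + 1) difference of 0.39 was within the rule, which it passed at 0.68 with a pseudocount of 0.1 and at 0.75 as a ratio of scaled counts.

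The remaining 4 genes had counting intervals that included 1. Car14, a transmembrane form, had 23.05 FPKM in SML and 22.2 FPKM in HFD control, and Car13, a cytosolic form, had 21.5 FPKM in SML and 19.0 FPKM in HFD control, a difference of 0.17 that became -0.04 once the trend with GC content and length was removed. Car11 had 6.53 FPKM in SML and 5.45 FPKM in HFD control. Car7, a cytosolic form known from brain and muscle, had 4.41 FPKM in SML and 5.69 FPKM in HFD control over 2 transcripts.

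The order of the family was alike in both libraries, with Car3, Car4, Car14 and Car13 first and Car8 last. Car2 stood above Car5b in SML and below it in HFD control, and the Poisson intervals of that pair overlapped in SML and not in HFD control. Car11 stood above Car7 in SML and below it in HFD control, with overlapping intervals in both. Those of Car14 and Car13 overlapped in both libraries. Car3 was 67.1 times as abundant as Car4 by FPKM in SML and 28.6 times in HFD control, and it was 283 times as abundant as Car5b in SML and 130 times in HFD control. Car3 held 95.9% of the family's FPKM in SML and 92.5% in HFD control, Car4 held 1.43% in SML and 3.24% in HFD control, and Car5b held 0.339% in SML and 0.712% in HFD control. The summed FPKM of the 9 genes was 3059.9 in SML and 1728 in HFD control, a ratio of 1.77. Without Car3 the sum was 124 in SML and 129 in HFD control, a ratio of 0.960, so the sum of the other genes did not rise. With most of the family's FPKM in Car3, the family sum mainly follows that gene. Gene by gene, 6 of the 9 ratios of scaled counts lay above 1 and 3 below.

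Transporters that carry bicarbonate across membranes included 1 large difference. Slc4a4, a sodium and bicarbonate cotransporter gene, had 23.6 FPKM in SML and 9.07 FPKM in HFD control, a ratio of 2.60 (2.39 to 2.82). It was the 1 of 4 kept bicarbonate and anion exchanger genes that was higher, with 0 lower. The other 3 were Slc4a2 (-0.36), Slc26a6 (-0.05) and Slc26a10 (0.12), and the list median was 0.03. Of 8 kept genes of proton and lactate transport 0 were higher and 1 was lower, at a median of -0.23. They ran from Slc9a3r2 (-0.60) and Slc9a3r1 (-0.49), scaffold genes of sodium and proton exchangers, to Slc9a8 (0.38), an exchanger gene of internal membranes.

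Macrophage markers were lower beside these genes, with 1 of 13 higher and 8 lower, a median of -0.65 and a summed level of 313 FPKM in SML and 511 FPKM in HFD control. They ran from Lyz1 (-1.30) and C1qc (-0.92) to Mrc1 (0.19) and Cd14 (0.72), and 9 of 13 lay below Car4. No macrophage or erythroid marker with values was listed at 0. The part of these cell types in the differences of Car2, Car3 and Car4 was not tested.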

How the data were processed

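Brown adipose tissue RNA was selected with oligo-dT beads and made into 1 TruSeq library for SML and 1 for HFD control, per the labels' protocols. The deposited table lists 14189 assembled transcripts with FPKM computed by the authors and a count column per library. CASAVA 1.8, Cufflinks and build mm10 are named in the submitters' processing notes. The aligner and annotation were not given in the sources used here. Values in the deposited count columns are a scaled signal, not whole reads. Low values moved in steps of 0.866 in SML and 0.637 in HFD control, and 94.8% of SML and 94.4% of HFD control values of symbols with 1 transcript were whole multiples within 0.1. At 1 fragment per step the table held 8489310 fragments in SML and 11983176 in HFD control. A 0 in the FPKM columns can stand beside a scaled count above 0, as in 1440 transcripts of SML and 273 of HFD control.

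The 30 rows whose symbol had become a date were left out, transcripts were summed by symbol, and differences were taken as log2(FPKM + 1), which understates those of low genes. Ratios of scaled counts carry exact conditional binomial intervals, and FPKM values exact Poisson intervals (SciPy 1.17.1, pandas 2.3.3). These cover counting error only, and they can understate it, since PCR copies are not separate molecules. The calculation was tested on simulated fragments. Members and lists were chosen with earlier results of these data known. Named genes were the 3 genes, the other carbonic anhydrases, all kept genes of bicarbonate-using enzymes, the 2 genes at each end of a list and the 3 genes nearest to each member. Myh7, Cdh5 and Prdm16 were chosen after their values were seen. Some genes that this rule would name are not reported here. Coding stretches were found with Biopython 1.88 as the longest open reading frame per gene in GENCODE M21. Alternatives changed the unit, pseudocount, filter, scaling, transcript choice and GC and length trend.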

Additional observations from a re-analysis of the deposited data

How the results depend on the processing

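Car3 kept its direction and stayed past 1.5-fold under all 7 alternatives, with log2 differences of 0.84 to 0.95. It moved outside its counting interval under some of them. The value was 0.93 with totals equal outside the 50 highest genes and 0.95 with totals equal without the skeletal muscle markers. With the GC content and length trend removed it was 0.84. Car4 (-0.36 to -0.23) and Car5b (-0.42 to -0.16) stayed below 0 and within the 1.5-fold rule under the same 7 alternatives. Both stayed inside their counting intervals. Centring on the median of kept genes could not change the values of Car3, Car4 and Car5b, since that median was 0. Taking the highest transcript per symbol could not either, since each of these genes has 1 transcript.

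Over all genes 538 were higher and 567 lower. The higher count was 911 with ratios of scaled counts, 847 with a pseudocount of 0.1, 302 with the GC content and length trend removed and 319 at a mean FPKM of at least 5. The lower count was 1115 with no filter on low values and 305 at a mean FPKM of at least 5. With totals equal without the muscle markers the split was 734 higher and 456 lower. The cause was not tested, beyond the fewer genes that the stricter filter tests and the more that no filter tests. In the family 2 genes were higher, or 3 with Car8 added for ratios of scaled counts and for a pseudocount of 0.1, and 0 lower throughout. No paired analysis was possible because each group has 1 library. Depth limits Car7, Car8 and Car11 most, with 58 to 102 fragments per library.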

Other observations

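Car3 lies in a cluster of carbonic anhydrase genes on mouse chromosome 3, and its neighbourhood was looked at after the values were seen. Within 300 kb of Car3 the table held 4 other genes, each with a ratio of scaled counts above 1. Over 9853 genes the median log2 ratio of scaled counts was 0.004, so ratios above and below 1 were about equally common. Nothing is read from counts of so few neighbours. Car2, the next gene downstream, had a ratio of 1.68, while Car13, upstream, had a ratio of 1.13 (0.996 to 1.29) whose interval included 1. Further upstream 1810022K09Rik had 225 FPKM in SML and 122 FPKM in HFD control, a ratio of 1.82 (1.58 to 2.09), and E2f5, a cell cycle transcription factor gene, had 5.50 FPKM in SML and 3.56 FPKM in HFD control, a ratio of 1.54 (1.11 to 2.14). These last genes overlap at their ends and share 1 span in the table, and reads from the overlap cannot be told apart without strand. In all, 2 of the 4 passed the 1.5-fold rule as higher and 0 as lower.

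Around Car4, on chromosome 11, 9 other genes lay within 300 kb, of which 5 had ratios of scaled counts above 1, 1 of the 8 kept genes was higher and 0 were lower. Around Car5b, on the X chromosome, 3 other genes lay within that distance, all with ratios of scaled counts above 1, and 0 passed the rule in either direction. The counting intervals of Ap1s2 and Pir among them included 1. For Pigw near Car4 and Ap1s2 near Car5b the direction turned with the unit. Pigw had a ratio of 1.32 but was listed at 0 FPKM in SML, against 0.82 FPKM in HFD control. Ap1s2 had a ratio of 1.11 but 2.26 FPKM in SML and 2.58 FPKM in HFD control. Ggnbp2os, the higher gene near Car4, is listed at the same span as Ggnbp2, with 33 fragments in SML and 22 in HFD control. Pigw is listed at the same span as Myo19 and Znhit3, so these neighbours of Car4 were not counted at separate places.

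At Car7 the table lists 2 transcripts from 1 span. The more abundant had 4.41 FPKM in SML and 4.77 FPKM in HFD control, while the other had 0.92 FPKM in HFD control and was listed at 0 in SML, with a scaled count of 10.3 in HFD control and 0 in SML.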
